A study of Mus musculus with 18 samples.

Results

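The regions described here are the accessible chromatin regions of 10 loci that restrain the cell cycle or mark cellular senescence: Cdkn2a, Cdkn2b, Cdkn2c, Cdkn1a, Cdkn1b, Cdkn1c, Trp53, Mdm2, Gadd45a and Gadd45b. ATAC-seq peaks of 18 mice were merged into 47338 consensus regions, each with a peak in at least 2 samples, and a region was taken when its midpoint had 1 of these genes as the nearest RefSeq transcription start site (TSS) in mm10, or lay in the gene body. This gave 36 regions, 35 by the nearest TSS and 1 by the gene body alone. The peaks came from freshly sorted lung endothelial cells (ECs; CD31 positive and negative for CD45, EpCAM and GFP) of female and male FVB mice. All groups carried the Col1α1-GFP transgene, a collagen promoter reporter used in the sort to remove GFP-positive cells. Young Sham (n = 5) and Young Bleo (n = 4) mice were 2 months old, and Aged Sham (n = 4) and Aged Bleo (n = 5) mice were 18 months old. Sham mice received PBS into the trachea, Bleo mice received about 1 U/kg bleomycin by the same route, and lungs were taken at day 30.

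The INK4 proteins, encoded by Cdkn2a, Cdkn2b and Cdkn2c, bind and block the cyclin D kinases, and the CIP/KIP proteins, encoded by Cdkn1a, Cdkn1b and Cdkn1c, block a wider range of cyclin-dependent kinases. Cdkn2a also encodes ARF from a separate first exon, which holds back Mdm2, the ubiquitin ligase that removes p53, the product of Trp53. p53 activates Cdkn1a, Mdm2 and Gadd45a after DNA damage, and Gadd45a and Gadd45b are stress sensors of the GADD45 family. Lasting expression of Cdkn2a and Cdkn1a is a usual mark of senescent cells, and bleomycin breaks DNA.

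The deposited lists held 21050 to 40883 nuclear peaks per sample, with a median of 25 to 33 fragments at the summit. The shortest list was Aged Bleo 4, and the Aged Sham lists (25793 to 32220 peaks) were shorter than those of Young Bleo (33980 to 39420 peaks). Longer lists can hold more regions of any locus, so presence of a region is read here beside the share of all regions that behaved alike. The sample labels name no sequencing lane, and lanes were inferred here from an unexplained L code that each list carries in its name. By that code, all Young Sham samples ran on lane 8 with Young Bleo 4, Young Bleo 1 to 3 and Aged Sham 1 to 3 on lane 7, and Aged Sham 4 with all Aged Bleo on lane 6. No lane held both Young Sham and an aged sample, so lane and age cannot be told apart there by a direct comparison. A fit with lane as a term joins lane 8 to lane 7 only through Young Bleo 4. It joins lane 7 to lane 6 only through Aged Sham 4. Differences in that fit therefore rest on these single mice. Aged Sham 4 was also registered apart from the other samples, and a shared code does not show a shared sequencing run. At the TSS of endothelial markers, 5 of 8 genes (Cdh5, Tie1, Kdr, Erg and Robo4) had a peak in all 18 samples and the lowest was Emcn with 7. Of 6 leukocyte genes 5 had none in any sample, with Spi1 in 14, and of 6 epithelial genes 5 had none, with Epcam in 9. Of 6 fibroblast or mural genes 4 had none (Col1a2, Dcn, Rgs5 and Acta2), whereas Col1a1 and Pdgfra had a TSS peak in all 18.

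Sequence at the regions that carry the results is shown as 30 bases of mm10 around a motif, in capitals, found within the 200 bp centred on the strongest summit. The motifs searched on both strands were an ETS core (CAGGAAG), a FOXO core (TGTTTAC), an AP-1 site (TGANTCA), an SP and KLF box (GGGCGG) and the p53 decamer, the unit that p53 response elements repeat. The first 6 windows are from 3 distal Cdkn2b regions, and the last 4 are from regions at or near the TSS of Cdkn1c, Trp53, Gadd45a and Gadd45b.
Cdkn2b 175 kb upstream, ETS core, minus strand, chr4:89486109-89486138: cgcccacacaccCAGGAAGcgcaggggtat
Cdkn2b 175 kb upstream, FOXO core, plus strand, chr4:89486050-89486079: tcacatggcctTGTTTACagctccggagtg
Cdkn2b 175 kb upstream, AP-1 site, plus strand, chr4:89486009-89486038: ttgtttaatacTGACTCAgaggaagcgctc
Cdkn2b 134 kb upstream, ETS core, plus strand, chr4:89445251-89445280: ttgtggagaaaCAGGAAGgaatgtttatta
Cdkn2b 168 kb upstream, AP-1 site, plus strand, chr4:89479082-89479111: ctctggctcccTGACTCAtatcctcttggc
Cdkn2b 168 kb upstream, p53 decamer, plus strand, chr4:89479051-89479080: agtggtacaaAGGCTAGCCTgtgcgggctg
Cdkn1c TSS, SP and KLF box, minus strand, chr7:143461114-143461143: cctctgtgggcgGGGCGGgctgcaccctcc
Trp53 intron, SP and KLF box, plus strand, chr11:69581503-69581532: tgaaagcggaagGGGCGGgcttgggccccg
Gadd45a TSS, p53 decamer, plus strand, chr6:67037428-67037457: cggagatatgGGGCTAGCCCtcagccaacc
Gadd45b TSS, SP and KLF box, minus strand, chr10:80929921-80929950: tggagatggaaaGGGCGGagctcggagctc
Over the 36 regions, the ETS core was found in 8 (22.2%, against 20% of all consensus regions), the FOXO core in 5 (13.9% against 4.44%), the AP-1 site in 6 (16.7% against 8.63%), the SP and KLF box in 13 (36.1% against 25.2%) and the p53 decamer in 3 (8.33% against 5.86%). A pair of p53 decamers with at most 13 bp between them was in 0 of the 36 regions and in 0.0359% of all. These matches are letters in a window and were not tested as binding sites.

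The loci differed mainly in how many distal regions they had. Cdkn2a, Cdkn2c, Cdkn1b, Trp53 and Mdm2 had 1 region each and Cdkn1a had 2, and every one of these was called in all 18 samples. Cdkn1c had 4 regions, Gadd45a 6, Cdkn2b 9 and Gadd45b 10, and the presence of most of these distal regions varied from mouse to mouse. Of the 36 regions 17 (47.2%) were called in every sample, against 36.8% of all consensus regions. Among the 11 with a midpoint within 1000 bp of a TSS 9 were called in all samples (77.0% of such regions genome-wide), and among the 25 farther away 8 were (21.5% genome-wide). By annotation 9 regions were in promoters, 2 in UTRs, 18 in introns and 7 intergenic. Their median width was 450 bp, against 440 bp for all regions.

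The number of these regions called per mouse was 24 to 31 in Young Sham (median 29), 25 to 31 in Young Bleo (median 28), 21 to 26 in Aged Sham (median 23.5) and 19 to 29 in Aged Bleo (median 25). The lowest value, 19, was in Aged Bleo 4, which also had the shortest list. The map of calls by sample shows this spread region by region.

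**Figure D1:**
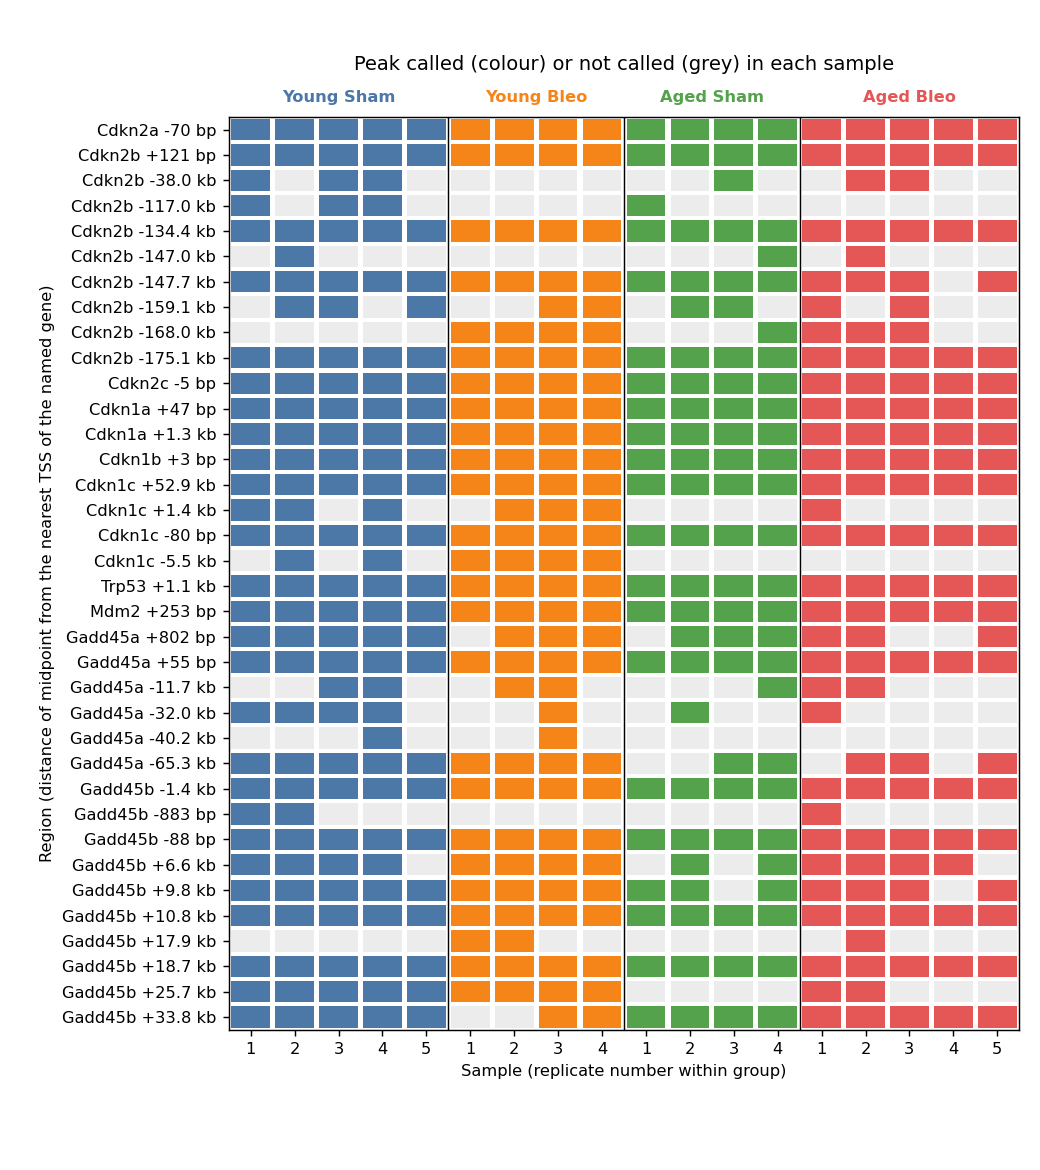
Peak calls at the 36 regions (rows, named by gene and distance of the midpoint from its nearest TSS) in the 18 samples (columns, by group and replicate number); coloured cells are called and grey cells are not. The 17 rows that are filled throughout include all regions of Cdkn2a, Cdkn2c, Cdkn1a, Cdkn1b, Trp53 and Mdm2, while gaps fall at distal regions of Cdkn2b, Cdkn1c, Gadd45a and Gadd45b and at 2 regions within 1000 bp of a GADD45 TSS.

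Strength was measured within each sample, since the deposited fold enrichment is not scaled between libraries. For the 17432 regions called in all 18 samples, the fold enrichment was turned into a percentile rank within the sample (100 being the strongest). Groups were compared with limma over all of these regions. Aged Bleo and Young Sham differ in both age and bleomycin, so that comparison cannot tell the 2 apart. On this scale the region at the Gadd45a TSS (chr6:67036952-67037752) was the strongest of the 17, with a mean rank of 90.3 ± 2.84 (SD, n = 18). It was followed by Mdm2 (79.2 ± 5.76), the Cdkn1c TSS (69.2 ± 7.99), the Cdkn2b TSS (66.0 ± 6.33), Cdkn2c (63.4 ± 4.80) and the Gadd45b TSS (59.7 ± 10). Neighbours in this order from Cdkn1c to the Gadd45b TSS lay within 1 SD of each other. The Cdkn1b TSS ranked at 48.2 ± 6.98 and that of Cdkn2a at 28.5 ± 16.1. The Cdkn1a TSS region was near the bottom, at 5.97 ± 5.90, while the region in its intron ranked at 40.5 ± 9.73. The median over the 9 regions of these loci within 1000 bp of a TSS was 63.4, against 63.6 for all such regions.

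The INK4 loci held the largest differences in strength, at 2 distal regions upstream of Cdkn2b that ranked lower in both bleomycin groups than in Young Sham. Both lie in introns of Gm12610, a gene annotated across the upstream flank of Cdkn2b. They are assigned to Cdkn2b by the nearest TSS alone, and which gene they act on was not tested. The region 175 kb upstream (chr4:89485838-89486410) ranked at 62.9, 63.8, 44.1, 71.3 and 71.9 in the 5 Young Sham samples and at 22.9, 19.8, 20.2 and 26 in the 4 Young Bleo samples. Every Young Bleo sample lay below every Young Sham sample. By the lane code, only Young Bleo 4 shared a lane with Young Sham. The ranks in Aged Sham were 59.2, 57.3, 46.0 and 43.6, inside the Young Sham range apart from the last. In Aged Bleo the ranks were 20.8, 39.5, 64.1, 22.1 and 20, with 4 of 5 samples below every sham sample of either age and Aged Bleo 3 among the Young Sham values. The difference from Young Sham was -40.6 ± 7.86 (SE) in Young Bleo (adjusted p = 0.0135, limma) and -29.5 ± 7.41 in Aged Bleo (adjusted p = 0.0213, limma). The first call held without any single sample, and the second rose to an adjusted p of 0.0525 (limma) without Young Sham 4 or without Aged Bleo 5. Fold enrichment at the summit went from a median of 18.8 in Young Sham to 10.9 in Young Bleo.

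The region 134 kb upstream of Cdkn2b (chr4:89445060-89445706) moved the same way. Its ranks were 29.5, 49.8, 33.1, 38.6 and 40.8 in Young Sham and 25.2, 6.93, 13.2 and 6.32 in Young Bleo, with no overlap. Aged Sham samples ranked at 39.1, 39.4, 42.3 and 29.5, and Aged Bleo samples at 1.54, 18.2, 16.7, 32.5 and 20.8. Only Aged Bleo 4 reached the range of the sham groups. The difference from Young Sham was -25.5 ± 5.58 (SE) in Young Bleo (adjusted p = 0.0238, limma) and -20.4 ± 5.26 in Aged Bleo (adjusted p = 0.0232, limma). Against Aged Sham, the Aged Bleo difference was -19.7 ± 5.58 (adjusted p = 0.105, unadjusted 0.00277, limma), and at the region 175 kb upstream it was -18.2 ± 7.86 (adjusted p = 0.269, unadjusted 0.0338, limma). The latter was lost (unadjusted p = 0.0909 at most, limma) without any one of Aged Sham 1 or 2 or Aged Bleo 1, 4 or 5. The Young Bleo call at 134 kb rose to an adjusted p of 0.0570 without Young Sham 2, and to 0.0853, 0.0549 and 0.0583 without Young Bleo 2, 3 and 4 (limma). On quantile-normalised fold enrichment it was 0.0623 (limma). The Aged Bleo call rose to 0.0644 without Young Sham 2 (limma). The difference between the bleomycin effects of the 2 ages was 22.4 ± 11.1 at 175 kb (unadjusted p = 0.0612, adjusted 0.569, limma) and 5.82 ± 7.89 at 134 kb (adjusted p = 0.865, limma), so a difference between ages was not shown. Over all regions 9.12% had an unadjusted p of at most 0.05 for this difference. With lane as a term the Young Bleo differences were -36.8 and -32.0, with unadjusted p of 0.0156 and 0.00326 and adjusted p of 0.577 and 0.440 (limma). In the same fit the Aged Bleo differences from Young Sham were -13.9 and -18.4, with unadjusted p of 0.527 and 0.225 (limma).

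Between these regions, 168 kb upstream of Cdkn2b (chr4:89478880-89479233, also in an intron of Gm12610), a peak appeared in the opposite direction. It was called in 0 of 5 Young Sham, 4 of 4 Young Bleo, 1 of 4 Aged Sham and 3 of 5 Aged Bleo samples. Fold enrichment was 5.22, 6.81, 5.60 and 6.59 in Young Bleo, on 13 to 17 fragments, so these were weak peaks. The Young Bleo difference gave p = 0.00794 by Fisher's exact test, the smallest that 4 against 5 samples allow, and an adjusted p of 0.535 over all regions. It was the 1 of 36 regions called in this comparison, while 5.94% of all regions were called and 3.98% were called in more Young Bleo samples. By the lane code, Young Bleo 4 was the only Young Bleo sample on the lane of Young Sham. The other Cdkn2b regions varied without passing the test. The region 117 kb upstream was called in 3 of 5 Young Sham, 0 of 4 Young Bleo, 1 of 4 Aged Sham and 0 of 5 Aged Bleo samples, and that 38.0 kb upstream in 3, 0, 1 and 2 samples of these groups. At 147.7 kb upstream all but 1 sample, Aged Bleo 4, had a peak.

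The number of Cdkn2b regions called was 5 to 7 in Young Sham, 5 to 6 in Young Bleo and Aged Sham, and 3 to 7 in Aged Bleo, with no difference called in any of the 4 comparisons (exact permutation p of 0.365, 0.365, 0.651 and 1.00, in the order Aged Sham, Young Bleo and Aged Bleo against Young Sham, then Aged Bleo against Aged Sham). With every list cut to 21050 peaks 4 Cdkn2b regions remained, and the counts were 4, 4, 3, 4 and 4 in Young Sham and 3, 2, 3 and 2 in Young Bleo (means 3.80 and 2.50, exact permutation p = 0.0317), while 4.09% of all genes were called with fewer regions in Young Bleo at this length. The other comparisons gave exact permutation p of 0.206 to 0.524. The bars of calls by region show which regions made up these totals. Of the remaining Cdkn2b regions, that 147045 bp upstream was called in 3 of 18 samples and that 159057 bp upstream in 9 of 18, 2 or 3 in each group.

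**Figure D2:**
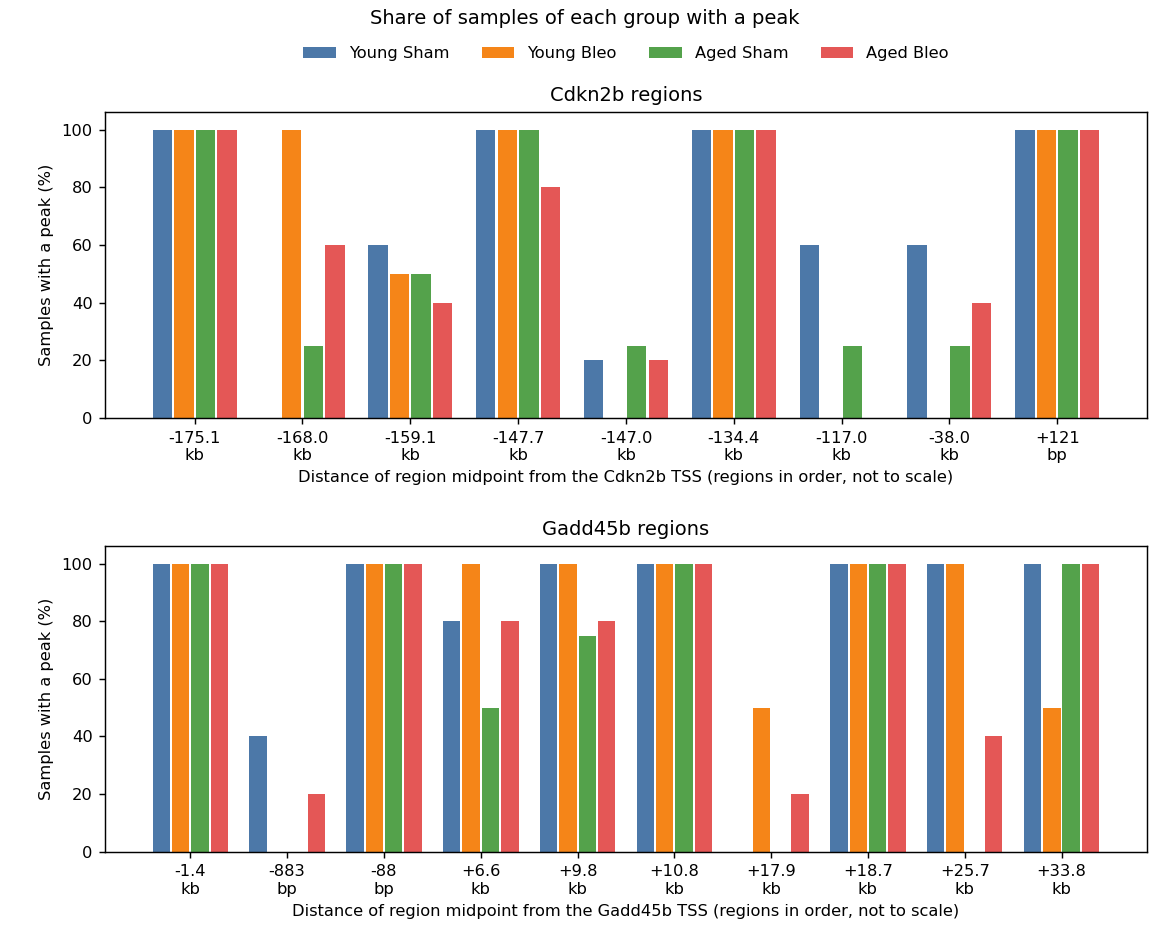
Percentage of samples of each group with a peak (bars, y axis from 0) at each Cdkn2b region (upper panel) and Gadd45b region (lower panel), ordered by distance from the TSS. At Cdkn2b the bar 168.0 kb upstream is absent in Young Sham and full in Young Bleo, and at Gadd45b the bar 25.7 kb downstream is full in both young groups and absent in Aged Sham.

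At the TSS of the INK4 genes no difference passed adjustment. The Cdkn2a region over the start of the transcript that encodes p16 (chr4:89282019-89282504, promoter) ranked at 41.6, 37.9, 38.5, 43.4 and 22.9 in Young Sham and at 10.5, 8.27, 7.74 and 19.6 in Young Bleo. Young Bleo samples all lay below Young Sham samples, by -25.3 ± 8.63 (SE), with an unadjusted p of 0.00964 and an adjusted p of 0.133 (limma). With lane as a term the difference was -17.2 (unadjusted p = 0.239, limma), and on ranks of -log10 p it was -13.7 (unadjusted p = 0.0758, limma), so the call was lost in both. With every list cut to 21050 peaks the region was called in 5 of 5 Young Sham and 1 of 4 Young Bleo samples (exact permutation p = 0.0476). At this length 4.09% of all genes were called with fewer regions in Young Bleo. Aged Sham samples ranked at 42.4, 27.0, 55.0 and 22.5, at the level of Young Sham (difference -0.120 ± 8.63, adjusted p = 0.998, limma). In Aged Bleo the ranks spread from 1.54 to 47.3 and overlapped every other group.
The region at the other Cdkn2a start, that of ARF (chr4:89294499-89295595), has Gm12610 as its nearest TSS and is not counted among the 36. It was called in all 18 samples, and its mean rank was 23.2 ± 13.2 (SD, n = 5) in Young Sham and 39.7 ± 9.24 (SD, n = 4) in Aged Sham, a difference with an unadjusted p of 0.0443 by limma that was lost, at up to 0.131, without any one of Young Sham 1, 2 or 4 or Aged Sham 2, 3 or 4.

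The Cdkn2b TSS region (chr4:89310483-89311338, UTR) ranked at 64.0 ± 4.73 (SD, n = 5) in Young Sham and 72.3 ± 2.84 (SD, n = 5) in Aged Bleo, a difference of 8.27 with an unadjusted p at most 0.05 (limma) that was lost without Young Sham 4 (unadjusted p = 0.0643, limma). When ranks were taken on -log10 p the sign turned, to -1.86. The Cdkn2c TSS region (chr4:109666259-109667263, promoter) had means of 60.1 ± 5.73, 63.1 ± 5.19, 63.5 ± 1.18 and 66.8 ± 4.05 (SD) in sham and bleomycin-treated young mice and in sham and bleomycin-treated aged mice, in that order. Its Aged Bleo difference from Young Sham, 6.64, passed only without adjustment, was 4.26 without Young Sham 1, was lost (unadjusted p = 0.123 at most, limma) without any one of Young Sham 1 or 2 or Aged Bleo 1, 2, 4 or 5, and turned to -3.32 on -log10 p.

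**Figure D3:**
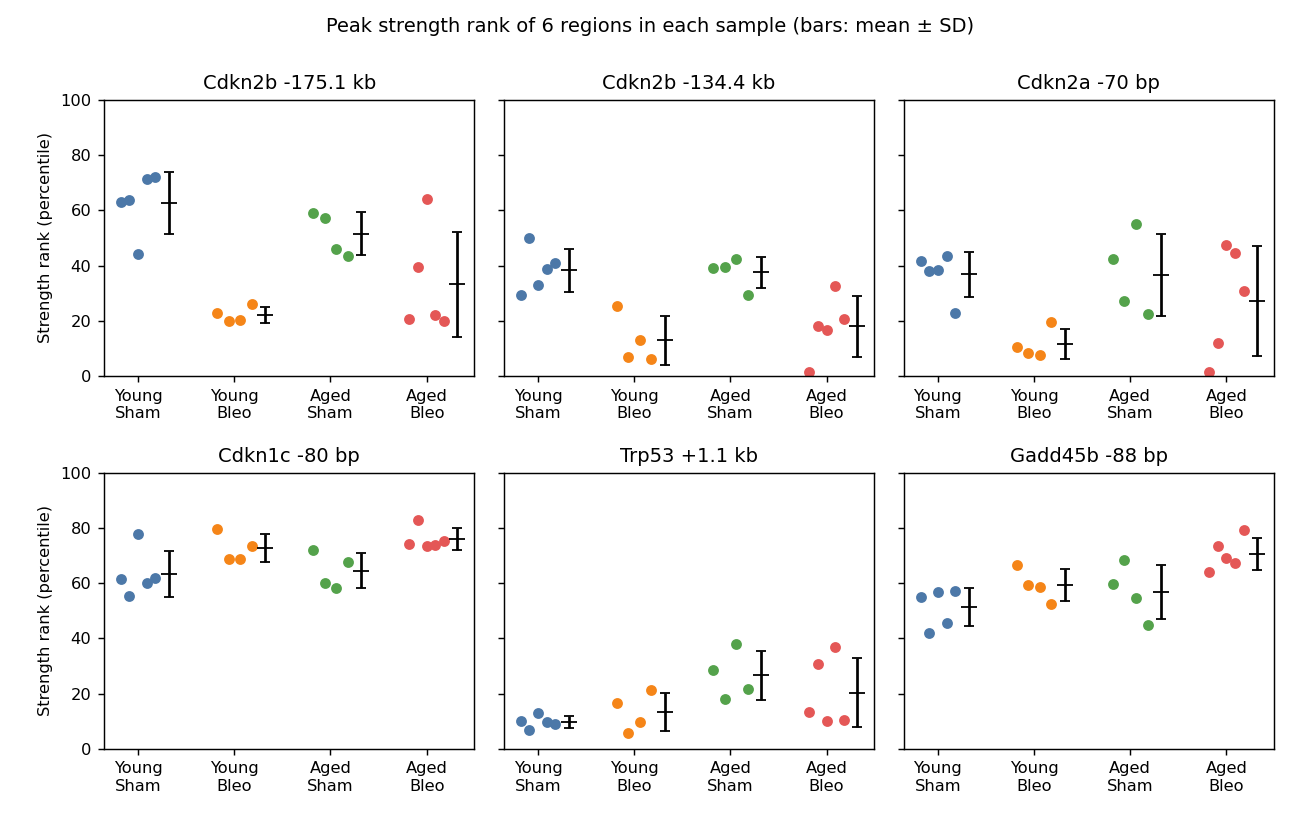
Strength rank (percentile within the sample, y axis 0 to 100) of 6 regions; each point is a mouse and the bars beside the points are the group mean ± SD. Both distal Cdkn2b regions and the Cdkn2a start sit lower in Young Bleo than in Young Sham without overlap, the Trp53 intron sits higher in Aged Sham, and the Gadd45b start sits higher in Aged Bleo.

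Of the CIP/KIP loci, Cdkn1c, the gene of p57, ranked higher at its TSS in Aged Bleo than in Young Sham. The TSS region (chr7:143460806-143461454, promoter) ranked at 61.6, 55.3, 77.7, 60.1 and 61.8 in Young Sham and at 74.1, 82.9, 73.5, 73.8 and 75.4 in Aged Bleo. All Aged Bleo samples were above 4 of the 5 Young Sham samples, and Young Sham 3 overlapped them. The difference was 12.6 (adjusted p = 0.0486, limma). The adjusted p stayed under the threshold without Young Sham 3 (0.0104) and rose to 0.0612 to 0.124 without any one of the other 9 samples (limma). It was also lost on ranks of -log10 p (0.125), on quantile-normalised fold enrichment (0.0657), among regions in at least 12 lists (0.186) and with lane as a term (0.858), all adjusted p with limma. Against Aged Sham (72.1, 60.1, 58.3 and 67.7) Aged Bleo did not overlap and was higher by 11.4, with an unadjusted p at most 0.05 that was lost without Aged Sham 3 (unadjusted p = 0.0530, limma). Young Bleo (79.5, 68.9, 68.9 and 73.3) was higher than Young Sham by 9.35, also without adjustment only, and this was lost (unadjusted p = 0.129 at most, limma) without any one of Young Sham 1, 2, 4 or 5 or Young Bleo 1 or 4. With lane as a term the Aged Bleo difference from Young Sham was 9.26 (unadjusted p = 0.429, limma).

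A pair of smaller Cdkn1c regions were seen mainly in young mice. The intergenic region 5.46 kb upstream (chr7:143466376-143466648) was called in 2 of 5 Young Sham, 4 of 4 Young Bleo and 0 of 9 aged samples, at fold enrichments of 3.98 to 6.94. The region in its gene body 1.39 kb downstream of the TSS (chr7:143459510-143459804) was called in 3 of 5 Young Sham, 3 of 4 Young Bleo, 0 of 4 Aged Sham and 1 of 5 Aged Bleo samples. Neither passed Fisher's exact test in any of the 4 comparisons. The count of Cdkn1c regions was 3, 4, 2, 4 and 2 in Young Sham, 3, 4, 4 and 4 in Young Bleo, 2 in each Aged Sham sample and 3, 2, 2, 2 and 2 in Aged Bleo. The lowest exact permutation p was 0.167, for Aged Sham against Young Sham. All Aged Sham lists were shorter than every Young Bleo list, whereas 2 Aged Bleo lists, of 37595 and 40883 peaks, were as long as those of young mice. With every list cut to 21050 peaks neither flanking region remained, so these calls could not be compared at equal list length. The remaining Cdkn1c region, 52.9 kb downstream in an intron of Kcnq1 (chr7:143407762-143408443), was called in all 18 samples at a mean rank of 27.4 ± 11.5 (SD), and no comparison was called.

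Cdkn1a, the gene of p21, had a TSS peak of low fold enrichment beside an intronic one of higher fold enrichment. The TSS summit held 62 to 233 fragments, above the median peak of every sample, over a local background of 8.41 to 23 fragments, where the background level of the libraries was 1.02 to 1.78, so a low rank here is a low ratio and not a small peak. The TSS region (chr17:29093530-29094101, promoter) ranked at 3.12 ± 1.69 (SD, n = 5) in Young Sham, 2.11 ± 1.16 (n = 4) in Young Bleo, 6.68 ± 3.47 (n = 4) in Aged Sham and 11.3 ± 8.58 (n = 5) in Aged Bleo. The Aged Bleo difference from Young Sham was 8.21, with an unadjusted p at most 0.05 under every omission of 1 sample (0.00465 to 0.0429, limma) but 0.310 with lane as a term. It passed adjustment on ranks of -log10 p (adjusted p = 0.00506) and on quantile-normalised fold enrichment (adjusted p = 0.0472, limma) and not on the main scale (0.106). Aged Bleo 4 ranked at 25.5 and the other Aged Bleo samples at 3.15 to 11.8, and without it the difference was 4.69. The intronic region (chr17:29094421-29095774) ranked at 33.0, 26.3, 33.2 and 40.2 in Aged Sham and at 50.8, 32.6, 52.8, 46.1 and 62.6 in Aged Bleo. The Aged Bleo mean was 15.8 higher than that of Aged Sham (unadjusted p = 0.00948, adjusted 0.161, limma), and the groups overlapped at Aged Bleo 2. With lane as a term this difference was 8.79 (unadjusted p = 0.333, limma), so the call was lost. The difference from Young Sham, 11.7, was lost (unadjusted p = 0.110 at most, limma) without any one of Young Sham 4 or Aged Bleo 1, 3 or 5. The upstream alternative TSS of Cdkn1a at 29090979 had no consensus region within 1000 bp.

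At Cdkn1b, the gene of p27, the single TSS region (chr6:134919983-134920824, promoter) was called in every sample. Its mean ranks were 46.4 ± 9.30, 45.9 ± 3.84, 45.4 ± 3.96 and 54.2 ± 5.91 (SD) in sham and bleomycin-treated young mice and in sham and bleomycin-treated aged mice, in that order. No comparison was called, except Aged Bleo against Aged Sham with the replicate number as a block (10.1, unadjusted p = 0.0248, adjusted 0.258, limma).

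In the p53 and Mdm2 pair, the Trp53 region ranked higher in Aged Sham than in Young Sham, with a call after adjustment on ranks of -log10 p and not on ranks of fold enrichment. The region in an intron of Trp53 (chr11:69581192-69581708) ranked at 10.2, 6.80, 13, 9.76 and 8.88 in Young Sham and at 28.5, 18.1, 38.1 and 21.8 in Aged Sham, with no overlap. Aged Sham was higher by 16.9 (unadjusted p = 0.00723, adjusted 0.140, limma), and the unadjusted p stayed between 0.00438 and 0.0354 when 1 sample was left out. On ranks of -log10 p Aged Sham was higher by 20.7 (adjusted p = 0.0373, limma), and in the other fits the adjusted p was 0.107 to 0.558. With lane as a term the difference was 29.3 (unadjusted p = 0.0214, adjusted 0.558, limma). Aged Bleo ranks were 13.5, 30.6, 10.1, 36.9 and 10.4, so 3 of 5 samples lay in or next to the Young Sham range. The 2 regions next to the Trp53 TSS are nearer to the TSS of Wrap53, which is transcribed the other way, and are not counted among the 36. Of these, the one at the Trp53 start (chr11:69580060-69580503) had a low fold enrichment in every sample, with 29 to 70 fragments over a local background of 3.29 to 10.4, at a mean rank of 0.913 ± 0.376 (SD, n = 5) in Young Sham and 8.85 ± 6.51 (SD, n = 5) in Aged Bleo, a difference of 7.93 with no overlap (unadjusted p = 0.00797, adjusted 0.0640, limma). That difference passed adjustment on ranks of -log10 p (adjusted p = 0.000653), on quantile-normalised fold enrichment (0.00595) and among regions in at least 12 lists (0.00801, limma). With lane as a term even the unadjusted call was lost. Reads over these regions cannot be split between the 2 genes.

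The Mdm2 region (chr10:117709947-117711063, intron, midpoint 253 bp downstream of the TSS) ranked at 81.6, 80.3, 78.9, 83.3 and 87.7 in Young Sham and at 79.1, 81.4, 69.2 and 66.1 in Aged Sham. The groups overlapped, with a difference of -8.43 ± 3.47 (SE) and an unadjusted p of 0.0270 (adjusted 0.247, limma). That call was lost (unadjusted p = 0.118 at most, limma) without any one of Young Sham 5 or Aged Sham 3 or 4, and with lane as a term its sign turned to 4.09 (unadjusted p = 0.508, limma). Aged Bleo (74.9, 82.9, 79.7, 83.1 and 86.1) was above Aged Sham by 7.41, with an unadjusted p at most 0.05 that was lost at up to 0.191 (limma) without any one of Aged Sham 3 or 4 or Aged Bleo 2, 3, 4 or 5. Without Aged Sham 4 the difference was 4.79.

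The GADD45 genes had the most regions. The Gadd45b TSS region (chr10:80929692-80930314, promoter) ranked at 54.9, 42.1, 56.7, 45.6 and 57.2 in Young Sham, 66.6, 59.3, 58.7 and 52.4 in Young Bleo, 59.7, 68.3, 54.6 and 44.9 in Aged Sham, and 64.2, 73.4, 69.0, 67.3 and 79.3 in Aged Bleo. Every Aged Bleo sample lay above every Young Sham sample. The difference was 19.4 ± 4.39 (SE; adjusted p = 0.0131, limma), and it stayed called without any single sample (adjusted p of 0.0131 to 0.0390, limma). Among regions in at least 12 lists it was 10.8 and not called after adjustment (adjusted p = 0.0538, limma). Against Aged Sham the difference was 13.8, with an unadjusted p of 0.00165 to 0.0471 over the omissions of 1 sample (limma). With lane as a term the differences were 26.1 (unadjusted p = 0.0278, adjusted 0.584, limma) and 25.7 (unadjusted p = 0.00170, adjusted 0.379, limma). By the lane code Aged Sham 4, at 44.9, was the only Aged Sham sample on lane 6, so both of these differences rest on it.

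At 25.7 kb downstream of the Gadd45b TSS (chr10:80955630-80956043), in an intron of Gng7, a region was called in 5 of 5 Young Sham, 4 of 4 Young Bleo, 0 of 4 Aged Sham and 2 of 5 Aged Bleo samples. Its fold enrichment was 8.39, 7.59, 4.32, 8.01 and 5.92 in Young Sham. Young Bleo samples had 7.08, 10, 6.72 and 6.59, and the Aged Bleo samples with a peak had 7.70 and 6.55. The Aged Sham difference from Young Sham gave p = 0.00794 by Fisher's exact test (adjusted p = 0.786), again the smallest possible. It was the 1 of 36 regions called between the sham groups, where 5.17% of all regions were called and 4.90% were called in fewer Aged Sham samples. With peaks required to cover at least 50% of the region, the p was 0.167 by Fisher's exact test. The count of Gadd45b regions was 9, 9, 8, 8 and 7 in Young Sham and 6, 7, 5 and 7 in Aged Sham (exact permutation p = 0.0317, adjusted 0.462), against 10.3% of all genes called in that comparison and 10% called with fewer regions. It was the only 1 of the 10 genes called by number of regions in any of the 4 comparisons, where the backgrounds of the others were 7.60% (Young Bleo), 5.03% (Aged Bleo) and 1.13% (Aged Bleo against Aged Sham), and it was not called without any one of Young Sham 1, 2, 3 or 4 or Aged Sham 1 or 3. The Aged Sham lists were shorter than those of 4 of the 5 Young Sham samples. With every list cut to its 21050 strongest peaks, 7 Gadd45b regions remained, and the counts were 6, 4, 6, 5 and 5 in Young Sham and 5, 5, 5 and 6 in Aged Sham (exact permutation p = 1.00), so the call was lost at equal list length.

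A further Gadd45b region 10.8 kb downstream (chr10:80940596-80941232, intergenic) was low in Young Sham, at 6.47 ± 4.94 (SD, n = 5), and its mean rank was 19.2 ± 10.6 (SD, n = 4) for Aged Sham, 16.4 ± 6.93 (SD, n = 5) for Aged Bleo and 11.8 ± 5.39 (SD, n = 4) for Young Bleo. The Young Bleo samples, at 18.8, 8.78, 6.51 and 13.1, overlapped all 3 other groups. The differences of Aged Sham and Aged Bleo from Young Sham, 12.7 and 9.93, passed only without adjustment on this scale. Aged Sham 3 ranked at 34.9 and the other Aged Sham samples at 11.4 to 16. Without Aged Sham 3 the first difference was 7.52 and the call was lost (unadjusted p = 0.0773, limma), and the second (unadjusted p = 0.110 at most, limma) without any one of Young Sham 1 to 4 or Aged Bleo 1, 2 or 5. The regions 1.36 kb upstream (chr10:80928540-80928919) and 18.7 kb downstream (chr10:80948471-80949026) were called in all samples and were called in none of the comparisons. The regions 6.59 kb and 9.79 kb downstream were called in 14 and 16 of 18 samples and that 17.9 kb downstream in 3, of which 2 were Young Bleo. Among regions in at least 12 lists, the region 9.79 kb downstream ranked lower in Aged Bleo than in Young Sham. The difference was -17.1 (unadjusted p = 0.00110, adjusted 0.0255, limma), and in Young Bleo it was -12.7 (unadjusted p = 0.00875, adjusted 0.119, limma). In an intron of Gng7, the region 33.8 kb downstream was called in every sample except Young Bleo 1 and 2. A small region 883 bp upstream (chr10:80929101-80929315, promoter) was called in 2 Young Sham samples and 1 Aged Bleo sample.

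Gadd45a ranked high at its TSS in all groups, with mean ranks of 88.6 ± 2.53, 90.4 ± 2.97, 92.0 ± 1.36 and 90.6 ± 3.60 (SD) in sham and bleomycin-treated young mice and in sham and bleomycin-treated aged mice, in that order, and no comparison was called on this scale. On ranks of -log10 p Aged Bleo was lower than Young Sham by a difference of -4.89 (adjusted p = 0.00492, limma), where ranks of fold enrichment gave 2.07, and lower than Aged Sham by -4.91 (adjusted p = 0.0149, limma), where they gave -1.39. The region 802 bp downstream (chr6:67036436-67036773), nearest to the TSS of E230016M11Rik, was called in 5 of 5, 3 of 4, 3 of 4 and 3 of 5 samples of these groups. Farther out, the intergenic region 65.3 kb upstream (chr6:67102184-67103182), which held an ETS core, a FOXO core, an AP-1 site and a p53 decamer in its window, was called in 5 of 5 Young Sham, 4 of 4 Young Bleo, 2 of 4 Aged Sham and 3 of 5 Aged Bleo samples. The region 32 kb upstream was called in 4 of 5 Young Sham samples and in 1 sample of each other group. The intronic regions 11.7 kb and 40.2 kb upstream were called in 7 and 2 of 18 samples. None of these passed Fisher's exact test. The mean count of Gadd45a regions was 4.40 in Young Sham, 3.75 in Young Bleo, 2.75 in Aged Sham and 2.80 in Aged Bleo, and the lowest exact permutation p was 0.103, for Aged Sham against Young Sham. With every list cut to 21050 peaks 3 Gadd45a regions remained, and the counts were 2, 3, 3, 2 and 2 in Young Sham, 1, 1, 1 and 2 in Young Bleo, 1, 2, 1 and 1 in Aged Sham and 1 in each Aged Bleo sample. These passed without adjustment against Young Sham (exact permutation p of 0.0317 in Young Bleo and Aged Sham and 0.00794 in Aged Bleo). Over all genes at this list length, the shares called with fewer regions were 4.09% for Young Bleo, 2.26% for Aged Sham and 2.73% for Aged Bleo.

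Counted over the 17 regions with a strength rank, calls at an unadjusted p of at most 0.05 (limma) numbered 1 lower and 2 higher in Aged Sham against Young Sham (17.6%, against 15.9% of all 17432 regions), 3 lower and 1 higher in Young Bleo (23.5% against 17.4%), and 2 lower and 7 higher in Aged Bleo (52.9% against 27.6%). Aged Bleo against Aged Sham gave 2 lower and 4 higher (35.3% against 15.9%). Lower and higher calls over all regions were 7.66% and 8.23%, 8.90% and 8.52%, 12.6% and 15%, and 8.04% and 7.82% in the same order. The balance of lower and higher calls moved with the scale. On ranks of -log10 p it was 1 and 3 for Aged Sham, 2 and 3 for Young Bleo, and for Aged Bleo 3 and 5 against Young Sham and 4 and 4 against Aged Sham. All regions on that scale gave 10.6% lower and 10.6% higher, 14.2% and 14.1%, 19.6% and 19.2%, and 14.3% and 14.3%. Among the 23 regions of these loci with a peak in at least 12 lists the balance was 1 and 2, 4 and 0, 3 and 4, and 2 and 3, and over all 27626 such regions it was 10.8% and 4.12%, 9.51% and 8.39%, 17% and 8.30%, and 7.35% and 6.14%. In the fit with lane it was 0 and 1, 2 and 0, 0 and 2, and 0 and 3, against 3.75% and 4.04%, 3.53% and 3.59%, 3.28% and 4.84%, and 3.97% and 4.11% of all regions. On quantile-normalised fold enrichment it was 3 and 0 in Young Bleo, against 8.71% and 8.40% of all regions. The first 3 comparisons share the Young Sham samples and the last 2 share the Aged Bleo samples. The median difference over the 17 regions was -0.120, 1.86, 6.64 and 3.26 in these comparisons, against 0.434, -0.0295, 0.343 and 0.110 over all regions. In Aged Bleo against Young Sham 16.4% of all regions within 1000 bp of a TSS were called higher, against 13.2% of those farther away, and 10.5% and 15.4% were called lower. In the fit with lane as a term, each comparison rested on Young Bleo 4, on Aged Sham 4 or on both. The unadjusted calls that held were Trp53 in Aged Sham and both distal Cdkn2b regions in Young Bleo. Those at the Gadd45b TSS in Aged Bleo against either sham group, and at Mdm2 in Aged Bleo against Aged Sham, also held. The other calls by strength were lost. That fit also called Mdm2 higher in Aged Bleo than in Young Sham (19.4, unadjusted p = 0.0249, adjusted 0.570, limma), where the difference without lane was -1.02, and the Cdkn2b TSS higher in Aged Bleo than in Aged Sham (11.9, unadjusted p = 0.0463, adjusted 0.609, limma). On the main scale, after adjustment over all regions, 4 regions of these loci were called in at least 1 comparison: the 2 distal Cdkn2b regions, the Cdkn1c TSS and the Gadd45b TSS. None of these stayed called after adjustment with lane as a term. These calls after adjustment were 2 of 17 regions in Young Bleo, against 2.75% of all regions, and 4 of 17 in Aged Bleo against Young Sham, against 10.6%. In Aged Sham against Young Sham and in Aged Bleo against Aged Sham they were 0 of 17, against 1.21% and 0.344%. On ranks of -log10 p, which also depend on the number of fragments, more regions of the genome passed adjustment in each comparison. For these loci the counts were 1 in Aged Sham (5.88%, against 4.84% of all regions), 2 in Young Bleo (11.8% against 11.8%), and for Aged Bleo 7 against Young Sham (41.2% against 24.9%) and 4 against Aged Sham (23.5% against 11.5%). Those not called on the main scale were the Trp53 intron in Aged Sham, both Cdkn1a regions and Gadd45b 10.8 kb downstream in Aged Bleo against Young Sham (adjusted p of 0.00506, 0.0117 and 0.0319, limma), the Cdkn1a intron, Mdm2 and the Gadd45b TSS against Aged Sham (adjusted p of 0.0337, 0.0448 and 0.0231, limma), all higher, and the Gadd45a TSS, lower in both Aged Bleo comparisons. By presence, 0 regions of these loci were called in Aged Bleo against Young Sham (background 3.21%) or against Aged Sham (0.885%), and no region of the genome passed adjustment in any comparison. By limma on presence, without adjustment, the counts in Aged Bleo were 4 of 36 and 0, against 9.79% and 3.54% of all regions by the same test.

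**Figure D4:**
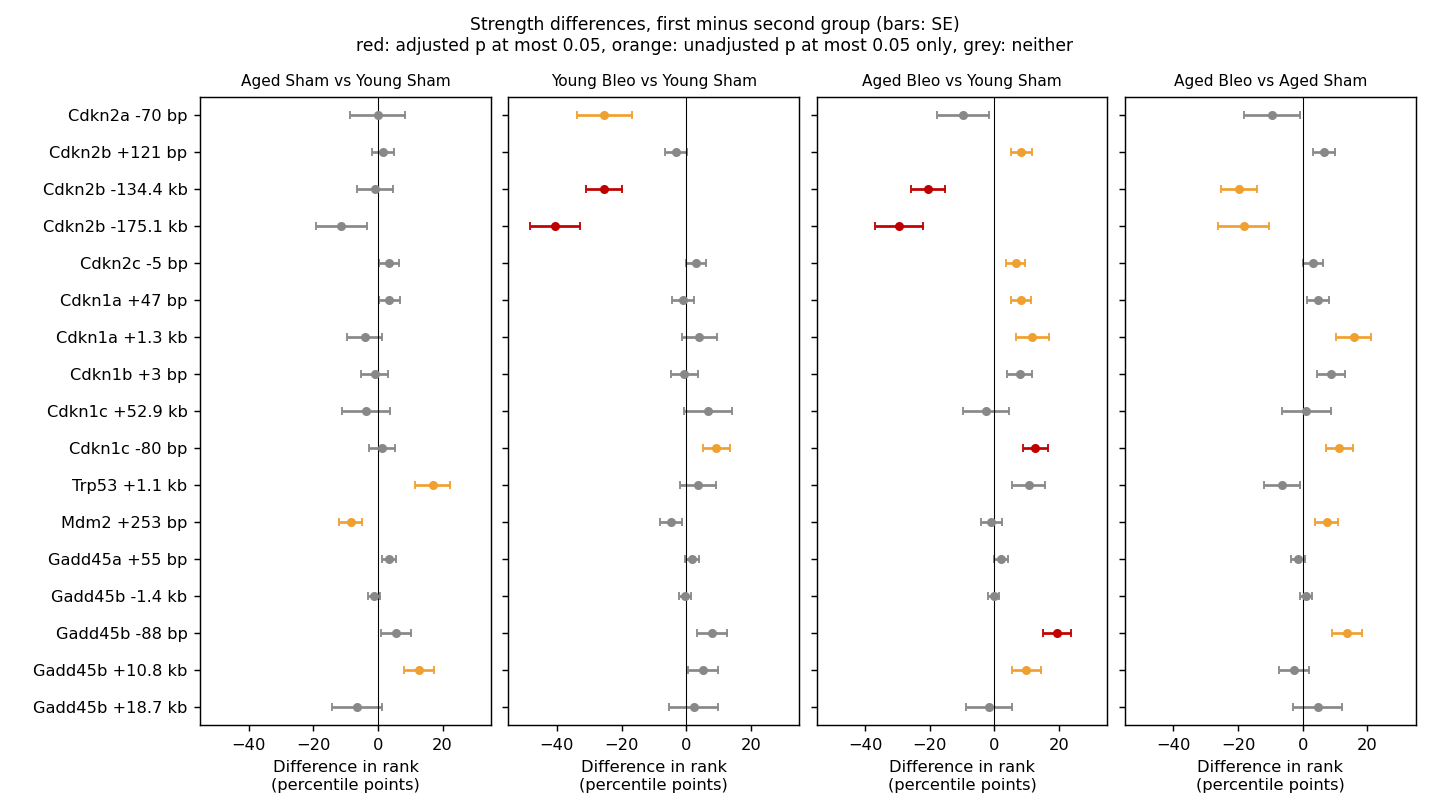
Difference in strength rank (percentile points, first minus second group, points) with its SE (bars) for the 17 regions called in all samples, in the 4 comparisons. Red points lie below zero at both distal Cdkn2b regions in Young Bleo and Aged Bleo against Young Sham, and above zero at the Cdkn1c and Gadd45b starts in Aged Bleo.

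The other genes of these pathways were counted by presence of their regions. Among the regions of 24 of 25 p53 target genes (81 regions), 2 were called in fewer Aged Sham samples (2.47%), 5 in more Young Bleo samples (6.17%) and 1 in fewer Aged Bleo samples (1.23%) than in Young Sham. Of the Young Bleo calls 2 were at Ddit4, a stress-induced inhibitor of mTORC1, of which that at -20954 bp (chr10:59972546-59972902) was called in 4 of 4 Young Bleo and 0 of 5 Young Sham samples (Fisher's exact p = 0.00794, adjusted 0.535). The Aged Bleo call was at Fas, a death receptor, where the region at -6081 bp (chr19:34284429-34284726) had a peak in 5 of 5 Young Sham and 0 of 5 Aged Bleo samples (Fisher's exact p = 0.00794, adjusted 1.00). In the RB arm (15 genes, 79 regions), 3 regions were called in fewer Aged Sham samples, 3 in fewer and 4 in more Young Bleo samples (8.86% in all), and 3 in fewer Aged Bleo samples. Of the 4 Young Bleo gains 3 were at E2f3, which encodes an E2F factor that drives S phase entry, and 1 was at Cdk6, a kinase that the INK4 proteins block and that also had a region called in fewer Young Bleo samples. Among known regulators of Cdkn2a (10 genes, 68 regions) 1 region was called in fewer Aged Sham samples and 2 in more Young Bleo samples, all at Ets1. In the secretory genes of senescent cells (15 of 18 genes with a region, 58 regions), 4 were called in fewer and 1 in more Aged Sham samples (8.62%), and 1 in fewer and 4 in more Young Bleo samples (8.62%). In Aged Bleo 1, at Plaur, was called in fewer samples than in Young Sham (1.72%). The region over the TSS of Ccl2, a monocyte chemokine (chr11:82035337-82035658), was called in 4 of 4 Young Bleo and 0 of 5 Young Sham samples (Fisher's exact p = 0.00794, adjusted 0.535). Gadd45g, the remaining member of its family, had 10 regions, of which 2 were called in more Young Bleo samples. In Aged Bleo against Aged Sham 1 region of the p53 targets, at Fas, and 1 of the secretory genes, at Icam1, were called in fewer Aged Bleo samples, 1 regulator region in fewer and 1 in more, and 1 Gadd45g region in more. Over all regions, 4.90% were called in fewer and 0.264% in more Aged Sham samples, 1.96% in fewer and 3.98% in more Young Bleo samples, and 3.01% in fewer and 0.201% in more Aged Bleo samples than Young Sham. Against Aged Sham the Aged Bleo shares were 0.410% and 0.475%. The list shares lay on both sides of these values.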

How the data were processed

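ATAC-seq peak lists of lung ECs from 18 mice were used, 1 list per mouse. The authors aligned the Omni-ATAC-seq read pairs with BWA (genome mm10), kept pairs with a uniquely mapped end, removed duplicates with Picard and called peaks per sample with MACS2 at an FDR of 1%; a shift of Tn5 cut sites is not given in the sources used here. The deposited fold enrichment is a ratio of fragments at the summit over that library's local background. Poisson significance was deposited as -log10 p and -log10 q, p-values and q-values of MACS2, and the deposited score is a rescaled -log10 q left unused here. The authors scaled no value of these lists across libraries. Read counts were not used here, so the authors' DiffBind comparison was not repeated.

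Nuclear peaks sharing at least 1 bp were merged and regions with a peak in at least 2 lists were kept; 19 mitochondrial peaks were left out. RefSeq transcripts of GRCm38.p6 gave the nearest TSS. Presence was compared with two-sided Fisher's exact tests, regions per gene (17967 genes) with exact permutation tests (two-sided) of the mean, and percentile ranks of fold enrichment with limma 3.58.1 in R 4.3.3 on 4 groups, at an unadjusted p of 0.05 with Benjamini-Hochberg adjustment over all regions or genes. Scripts (Python 3.11.15, scipy 1.17.1) were tested on simulated data. With 4 against 5 samples Fisher's exact p cannot go below 0.00794. Samples are single mice; depth in reads is unknown, and fragments at the summit were solved from fold enrichment and -log10 p. The members, gene lists and motifs were chosen with earlier results of these data known. Regions were described one by one within 1000 bp of a member's TSS or at an unadjusted p of at most 0.05, and genes of the lists were named from called regions, of which 1 gene is not reported here. A few unchanged or uncalled regions with uneven calls were named after their values were seen. Alternatives were other peak thresholds, equal list lengths, other membership and filters, other strength scales, each sample left out, and limma with the replicate number or with lane, inferred from an L code in each list's name.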

Additional observations from a re-analysis of the deposited data

Results flagged for a closer look

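Within groups, 72 sets of 4 or 5 values were screened for a sample that stood apart from its group by Dixon's criterion, and 8 were picked, where chance gives about 1 in 20 (3.60). Of these, 5 were single Young Sham samples in strength rank: Young Sham 5 at the Cdkn2a start (22.9, the others 37.9 to 43.4) and at the Cdkn1a start (6.05, the others 2.05 to 3.05), Young Sham 4 at the Cdkn1a intron (26.9, the others 37.9 to 42.4), Young Sham 3 at the Cdkn1c start (77.7, the others 55.3 to 61.8) and Young Sham 2 at Gadd45b 1.36 kb upstream (5.77, the others 2.42 to 3.05). Aged Bleo 2 ranked at 82.9 at the Cdkn1c start (the others 73.5 to 75.4), and Aged Sham 3 at 31.9 at Gadd45b 18.7 kb downstream (the others 59.0 to 64.2). Young Sham 5 also had a peak at 24 of the 36 regions, where the other Young Sham samples had 29 to 31, and its list was the shortest of its group, at 30073 peaks.

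At the Mdm2 region, the bleomycin effect on strength rank differed between ages by 12.1 ± 4.90 (SE; aged minus young; unadjusted p = 0.0252, adjusted 0.474, limma). The means were 73.9 in Aged Sham and 81.3 in Aged Bleo, and 82.4 in Young Sham and 77.7 in Young Bleo. Neither difference passed adjustment on this scale (adjusted p = 0.308 in aged and 0.544 in young mice, limma; 0.0448 in aged mice on ranks of -log10 p), and by the lane code 3 of 4 Aged Sham samples ran on another lane than Aged Bleo. It was the 1 of 17 regions picked in this way, against 9.12% of all regions.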

How the results depend on the processing

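Leaving out each sample in turn gave 1 called region by presence in Aged Sham and in Young Bleo against Young Sham, 0 to 2 in Aged Bleo against Young Sham (2 without Young Sham 5 or Aged Bleo 1, 1 without Young Sham 2 or Aged Bleo 2, 4 or 5), and 0 in Aged Bleo against Aged Sham. The number of genes called by regions was 0 to 1 in Aged Sham (0 without Young Sham 1, 2, 3 or 4 or Aged Sham 1 or 3) and 0 in the other 3 comparisons. By strength the counts were 1 to 3 (Aged Sham, 1 without Aged Sham 3), 3 to 4 (Young Bleo) and 6 to 9 (Aged Bleo against Young Sham), and 4 to 6 against Aged Sham. Samples with the same replicate number did not pair: over 25 such pairs the correlation of deviations was -0.193 to 0.335, median 0.0317, against -0.0114 for other numbers. With the number as a replicate block in limma, regions called by presence were 4 (Aged Sham), 6 (Young Bleo), 4 (Aged Bleo against Young Sham) and 1 (against Aged Sham), and genes called were 2 in Aged Sham and 1 in Aged Bleo against Aged Sham. By strength the block ended the adjusted calls at Cdkn2b 134 kb upstream in Young Bleo (adjusted p = 0.0729) and at the Cdkn1c start in Aged Bleo against Young Sham (0.0784), and the unadjusted ones at Mdm2 in Aged Sham (unadjusted p = 0.0695), the Cdkn1c start in Young Bleo (0.0737), Gadd45b 10.8 kb downstream in Aged Bleo (0.0554) and, in Aged Bleo against Aged Sham, Cdkn2b 175 kb upstream (0.0771) and Mdm2 (0.113; all limma). The block also added unadjusted calls by strength. These were the Cdkn1b start in Aged Bleo against Aged Sham (10.1, unadjusted p = 0.0248, limma) and the Gadd45b start in Young Bleo (9.77, unadjusted p = 0.0367, limma). Without the block limma gave 2, 5 and 4 of 36 regions in the first 3 comparisons, against 9.52%, 10.3% and 9.79% of all regions, and 2 genes in Aged Sham. With lane as a term, genes called in Aged Sham were 0, and regions called by strength were 1, 2, 2 and 3. A fold enrichment of at least 5 gave 2 regions and 1 gene in Young Bleo, and 1 region and 1 gene in Aged Bleo. A -log10 q of at least 5 gave 2 regions in Young Bleo, 0 genes in Aged Sham and 1 gene in Aged Bleo. Equal lists of 21050 peaks gave 3 regions and 3 genes (Cdkn2a, Cdkn2b and Gadd45a) in Young Bleo, all fewer, 1 of each in Aged Bleo and in Aged Sham, where the gene was Gadd45a and no longer Gadd45b, and kept neither the Gadd45b region 25.7 kb downstream nor the Cdkn2b region 168 kb upstream. Peaks covering at least 50% gave 2 regions in Young Bleo, 4 regions and 1 gene in Aged Bleo, 2 regions in Aged Bleo against Aged Sham, and 0 genes in Aged Sham. At equal list length the genes called were 8.34% of all in Young Bleo, 4.30% in Aged Sham and 4.37% in Aged Bleo, against Young Sham. For the other alternative settings by presence or by gene, except regions by limma without the block, no share of all is given. Those counts are therefore not read against a background. Among regions in at least 12 lists, unadjusted calls were lost at the ARF start in Aged Sham (unadjusted p = 0.101), the Cdkn1c start in Young Bleo (0.0700), the Cdkn2b start (0.148), Cdkn2c (0.296) and the Cdkn1a intron (0.287) in Aged Bleo against Young Sham, and Mdm2 against Aged Sham (0.0581; all limma). Quantile normalisation ended those at the Cdkn1c start in Young Bleo (0.0542), Cdkn2c in Aged Bleo against Young Sham (0.0721) and Mdm2 in Aged Bleo against Aged Sham (0.0770), ranks of -log10 p that at the Cdkn1c start in Young Bleo (0.0636), and the limit of 5 on fold enrichment that at Gadd45b 10.8 kb downstream in Aged Bleo (0.0552; all limma). Among strength differences of the 36 regions called without adjustment on the main scale or in the refit, signs turned at Mdm2 with lane in Aged Sham (4.09) and Aged Bleo (19.4) and, on -log10 p in Aged Bleo, all against Young Sham, at the starts of Cdkn2b (-1.86), Cdkn2c (-3.32) and Gadd45a (-4.89). Some uncalled differences also turned. In Aged Bleo against Young Sham that of the Cdkn2a start went from -9.64 to 20.2 with lane. The Cdkn1b start went from 7.82 to -2.63 on -log10 p. Of 404 refits at single regions 320 kept direction and side of the threshold and 81 lost the call; the causes were not tested.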
